A study of Mus musculus with 8 samples.

Results

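The Otx2 locus is described here through the regions of histone H3 lysine 27 acetylation (H3K27ac) whose nearest gene, as named in the authors' deposited table, was Otx2, at any distance from its start. This rule gave 3 of 112137 regions. They were an intronic region beside an internal start site of Otx2 and a pair of intergenic regions downstream of the gene, called near and far downstream here. The study measured H3K27ac by CUT&Tag, which tags chromatin beneath an antibody with a transposase, in mouse embryonic stem cells. There were 8 libraries in 4 groups of 2, and the replicates of a group were grown and prepared separately. The groups were naive and formative cells, each as wild type (WT) or with the genotype MLL3KO_MLL4KO, called DKO below. Formative cells were sampled 63 hours after LIF2i was withdrawn, while no treatment is given for naive cells. WT cells were the R1 line. No line or clone is named for DKO cells, so genotype and line cannot be told apart. Each group's H3K27ac is given as 1 pooled value with no SD or n, and only formative against naive WT carries a test over libraries, from DiffBind.

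Otx2 encodes a homeobox transcription factor that is induced as cells leave the naive state, helps to set up the enhancers of formative pluripotency and opposes the naive network. It later acts in the anterior neural plate and visceral endoderm. H3K27ac marks active promoters and enhancers. Monomethylation of histone H3 lysine 4 (H3K4me1) marks enhancers whether active or not, and is placed there by the methyltransferases MLL3 and MLL4, whose genes are Kmt2c and Kmt2d.

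In WT cells, H3K27ac fell at both downstream regions of Otx2 between the naive and the formative state. The intronic region was at a log2 fold of 0.67 in the authors' deposited table and did not pass the test (DiffBind adjusted p = 0.569). In naive DKO cells the pooled H3K27ac value was 4.83-fold lower than in naive WT at the near and 12-fold lower at the far downstream region. In formative cells these regions were 1.13-fold and 2.21-fold lower in DKO, and the near value changed sign with scaling. H3K4me1 at the same regions differed by at most 0.62 on the log2 scale between DKO and WT in either state. No RNA level or fold for Otx2 is held in the table.

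The regions lie on chromosome 14, with coordinates in mm10 as deposited. Otx2 is on the minus strand, from 48656781 to 48667644 in RefSeq, so lower coordinates are downstream. The intronic region, chr14:48662172-48662630, was 460 bases wide and 333 bases from the start site at 48662734. That start is an internal 1 of 4 Otx2 starts in RefSeq, the others being at 48665109, 48667508 and 48667644. The region lay 104 bases from the internal start and 2479, 4878 and 5014 bases from the others, and no region labelled as a promoter was assigned to Otx2. The table annotates it as intronic. In GENCODE M21 it also reaches into an exon that begins at 48662444 and holds the start codon at 48662538 to 48662540. The near downstream region, chr14:48653949-48656336, was 2389 bases wide, intergenic, and ended 445 bases beyond the RefSeq end of the gene. The far downstream region, chr14:48651811-48653782, was 1973 bases wide and intergenic, 2999 bases beyond the gene end, and it contained the annotated RNA gene Gm23469. Only 166 bases separated the downstream regions, which together spanned 4526 bases.

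Stretches of the 3 regions are printed to show how their sequences differ, 5′ to 3′, from the RefSeq genome of GRCm38, which is mm10. The first is the intron part of the intronic region, chr14:48662172-48662443 on the minus strand, with its 15 CpG dinucleotides in capitals. The other two are chr14:48654327-48654452 and chr14:48652771-48652957 on the plus strand. They are the parts of the downstream regions around a match to the OTX motif, with motif matches in capitals.
Otx2 intronic region: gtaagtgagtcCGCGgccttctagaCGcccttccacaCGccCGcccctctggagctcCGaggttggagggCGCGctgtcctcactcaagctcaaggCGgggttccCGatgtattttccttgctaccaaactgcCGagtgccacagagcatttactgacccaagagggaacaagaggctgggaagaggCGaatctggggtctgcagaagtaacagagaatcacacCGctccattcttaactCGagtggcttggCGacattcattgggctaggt
Otx2 near downstream region: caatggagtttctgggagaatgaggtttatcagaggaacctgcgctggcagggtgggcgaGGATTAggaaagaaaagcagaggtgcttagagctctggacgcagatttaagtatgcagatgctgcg
Otx2 far downstream region: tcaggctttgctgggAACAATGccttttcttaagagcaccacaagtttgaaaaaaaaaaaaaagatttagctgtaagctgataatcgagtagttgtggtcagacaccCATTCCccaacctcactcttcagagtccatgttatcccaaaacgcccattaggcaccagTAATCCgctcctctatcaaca

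The intronic region was GC-rich at 57.5%, above 93.8% of all regions, whose median was 48.0%. The near and far downstream regions had 50.0% and 48.8% GC. CpG dinucleotides, the sites of DNA methylation, stood at 0.689 of the number expected from base composition in the intronic region, 0.576 in the near and 0.349 in the far downstream region. The median over all regions was 0.212, so all 3 lay above it, the intronic region at the 96.8th percentile. Exact letters of 9 motifs were searched on both strands. These were TAATCC for OTX, AACAATG for SOX, GGAATG for TEAD, CAGCAGG for ZIC, CTTTGAT for LEF, ATGCAAAT for POU, TCAAGGTCA for ESRRB, AACCNGTT for GRHL and TTCCNGGAA for STAT. The intronic region held none of them. The near downstream region held 1 OTX match, on the minus strand and so read as GGATTA at 48654387 to 48654392, and 1 match each to LEF, SOX and ZIC. The far downstream region held 1 match each to OTX, at 48652937 to 48652942, SOX, TEAD and ZIC. In the printed stretch of the far region the capitals are, in order, the SOX match, the TEAD match on the minus strand and the OTX match. None of the matches overlapped another. Such matches were common. Among regions within 10% of the same length, an OTX match was present in 61.1% at the length of the near region and in 54.0% at that of the far region. At the length of the intronic region the share was 16.6%. The shares were 26.6% for SOX, 29.8% for LEF and 56.3% for ZIC at the near region's length, and 22.3% for SOX, 49.6% for ZIC and 64.3% for TEAD at the far region's length.

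H3K27ac in the intronic region was highest in formative WT. Its pooled log2(value + 1) was 8.92 in naive WT, 10.08 in formative WT, 8.25 in naive DKO and 9.11 in formative DKO. Formative cells were thus above naive cells in both genotypes, and DKO below WT in both states, over a range of 1.84; the formative difference between DKO and WT changed sign with scaling. The near downstream region had a single high group. Its pooled log2 value was 8.50 in naive WT, 6.78 in formative WT, 6.22 in naive DKO and 6.61 in formative DKO. The other 3 groups lay within 0.56 of each other, while the range with naive WT was 2.27. The far downstream region had the same order of groups over a wider range. Its pooled log2 value was 8.12 in naive WT, 6.69 in formative WT, 4.53 in naive DKO and 5.55 in formative DKO, a range of 3.59. Without naive WT the range was 2.16, set by the low naive DKO value. No spread over libraries is given for these pooled values, so it is unknown whether neighbours in these orders, such as formative WT and formative DKO at the near region, differ beyond it.

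**Figure D1:**
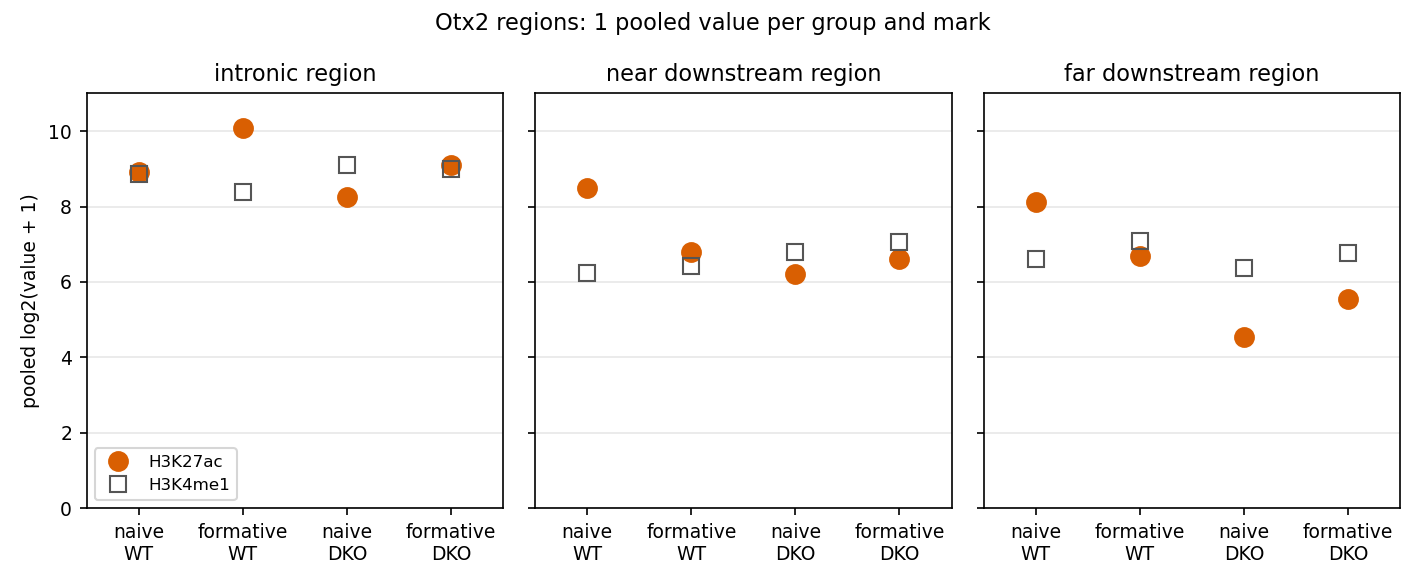
Pooled log2(value + 1) of H3K27ac (filled circles) and H3K4me1 (open squares) on the vertical axis for the 4 groups, with 1 panel for each Otx2 region and 1 pooled value per point, so no error bar. H3K27ac in naive WT stands at 8.50 and 8.12 in the downstream panels, above the other groups, while H3K4me1 stays within a range of 0.81 in every panel.

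The pooled level falls steeply with region width, so levels were compared between regions only after scaling per kb, on a log2 scale. The near downstream region then had the highest level in naive WT, at 9.75, against 9.09 for the far and 7.80 for the intronic region. In formative WT the order was turned, with the intronic region at 8.96, the near region at 8.03 and the far region at 7.65. In naive DKO the values per kb were 7.12 for the intronic, 7.46 for the near and 5.45 for the far region. In formative DKO they were 7.99, 7.86 and 6.50. The far region was the lowest of the 3 in formative WT and in both DKO groups.

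The replicated comparison asks how H3K27ac at Otx2 changed as WT cells went from the naive to the formative state. In the authors' deposited table the near downstream region had a mean concentration of 8.88 in naive and 7.09 in formative WT, a log2 scale that corresponds to 471 and 136 normalized reads. It fell by 1.79 on the log2 scale in the authors' deposited table (DiffBind adjusted p = 2.66e-07). The far downstream region had concentrations of 7.96 and 6.73, or 249 and 106 normalized reads, in the authors' deposited table. It fell by 1.23 in the authors' deposited table (DiffBind adjusted p = 0.0156), a call that is lost at a threshold of 0.01. The intronic region was shallow, with concentrations of 4.97 and 5.64, or 31.3 and 49.9 normalized reads, in the authors' deposited table. Its log2 fold of 0.67 did not pass the authors' DiffBind test (p = 0.435, adjusted p = 0.569). Of the 3 Otx2 regions 2 fell and none rose, against 15.8% of all regions that fell and 20.8% that rose. The near region stood at the 94.3rd percentile of concentration in naive WT and at the 79.2nd in formative WT, the far region at the 88.0th and 70.5th, and the intronic region at the 33.5th and 27.9th.

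The pooled values gave similar sizes for the downstream regions, −1.71 for the near and −1.43 for the far region, and 1.16 for the intronic region. The pooled difference exceeded the DiffBind fold in the authors' deposited table by 0.49 at the intronic region, by 0.08 at the near region and differed by −0.20 at the far region. The median over all regions above 0 in all 4 groups, 105643 regions called the main set below, was 0.48. With other scalings the intronic value ran from 0.005 to 1.61, while the near region stayed between −2.41 and −1.26 and the far region between −2.14 and −0.98.

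The same change of state was then examined in DKO cells, where no test over libraries exists and a region was called at a 2-fold difference of pooled values. The Otx2 regions were all higher in formative than in naive DKO. The differences were 0.86 at the intronic, 0.39 at the near and 1.01 at the far region, against a median of −0.07 over the main set. Only the far region reached 2-fold, where 16.6% of the main set was at least 2-fold higher. Over the scalings tried the far value ran from 1.03 to 1.30, the near value from 0.39 to 0.67 and the intronic value from 0.75 to 1.15. With a pseudocount of 10 the far value was 0.79, so its call was lost.

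Naive DKO cells were compared with naive WT cells to see how H3K27ac at Otx2 differs without MLL3 and MLL4. The pooled difference was −3.59 at the far, −2.27 at the near and −0.67 at the intronic region. Thus 2 of the 3 were at least 2-fold lower and none was at least 2-fold higher, against 26.3% and 19.2% of the main set. The far value was at or above only 2.37% of the main set and the near value only 8.53%, while the median of the main set was −0.10. Intergenic regions as a class had a lower median of −0.68. Within that class the far region was at or above 4.39% and the near region at or above 15.5% of regions. The intronic region was not set apart, with 33.8% of the main set at or below its value. Over the scalings the far region ran from −4.16 to −3.25, the near region from −2.85 to −1.92 and the intronic region from −1.25 to −0.27. With a pseudocount of 10 the far value was −3.16, the near value −2.14 and the intronic value −0.66.

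In formative cells the difference between DKO and WT was smaller at the downstream regions. The pooled values were −0.97 at the intronic, −0.17 at the near and −1.14 at the far region. The 1 region at least 2-fold lower, the far one, stands against 39.3% of the main set, whose median was −0.63, so the Otx2 regions were not set apart from it. The direction also rested on scaling. The near value ran from −0.80 to 0.89 and the intronic value from −1.60 to 0.47 over the scalings, and the far value from −1.77 to −0.08.

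The change of state in DKO minus that in WT was 2.44 at the far, 2.10 at the near and −0.30 at the intronic region. Both downstream regions were thus lower in formative than in naive WT and higher in formative than in naive DKO. The 2 regions past 2-fold compare with 19.5% of the main set, whose median was −0.39. Values as high as the near one were found in 7.03% of the main set and values as high as the far one in 5.02%. This difference of differences has no test, and it shares the naive WT value with the comparisons above. Among the 17373 regions of the main set that fell in WT by DiffBind, the median was 1.41, and 28.5% reached the near value and 20.9% the far value. In that set the change of state in DKO had a median of −0.60, and only 11.5% of regions were as high as the near value of 0.39 and 4.16% as high as the far value of 1.01. For DKO against WT in naive cells the set's median was −0.89, with 18.9% at or below the near and 4.73% at or below the far value.

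**Figure D2:**
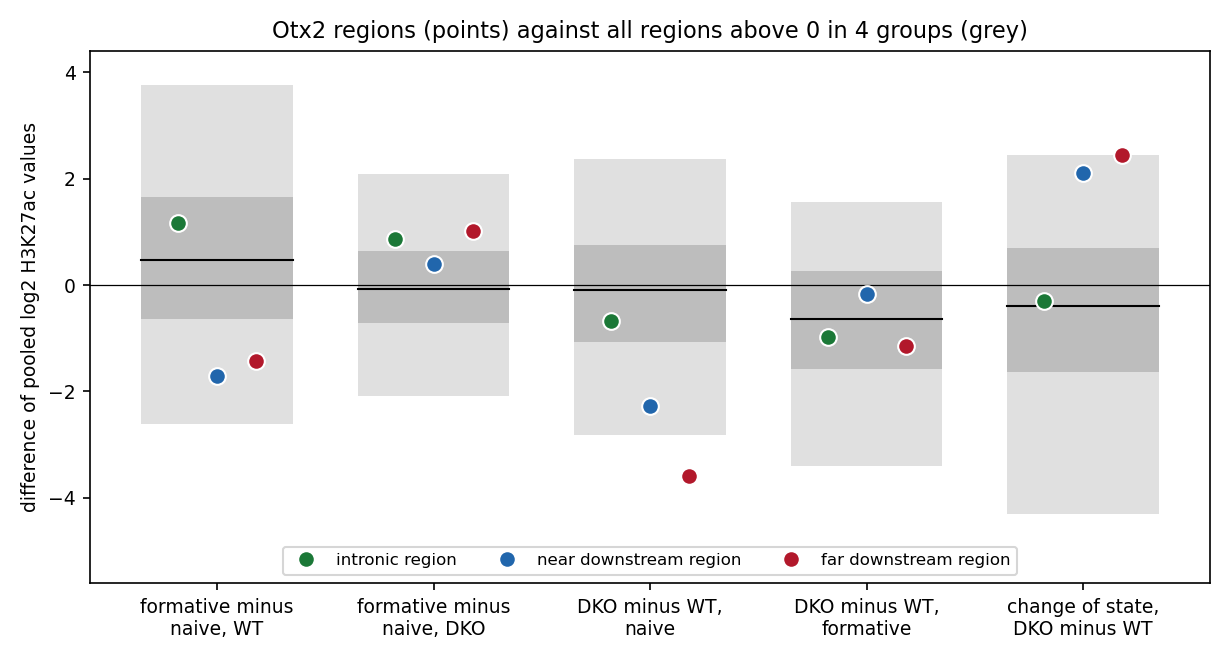
Differences of pooled log2 H3K27ac values on the vertical axis for 5 comparisons, with the 3 Otx2 regions as coloured points, 1 pooled value each. Grey bars span the 5th to 95th (light) and 25th to 75th (dark) percentiles of the main set and black lines its median; the far downstream region lies below the light bar in naive DKO minus WT, at −3.59.

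H3K4me1, given by the authors as pooled log2 values from libraries outside this series, showed little of this pattern. In the authors' deposited table it was, at the intronic region, 8.88 in naive WT, 8.39 in formative WT, 9.09 in naive DKO and 9.0 in formative DKO. At the near downstream region the pooled log2 H3K4me1 value was 6.25, 6.43, 6.79 and 7.05 in the same order in the authors' deposited table. At the far downstream region it was 6.60, 7.09, 6.36 and 6.77 in the authors' deposited table. The H3K4me1 ranges over the 4 groups were thus 0.70, 0.81 and 0.73, against 1.84, 2.27 and 3.59 for H3K27ac. In naive cells DKO minus WT was 0.22 at the intronic, 0.54 at the near and −0.24 at the far region, where the main set had a median of −0.31. In formative cells the values were 0.61, 0.62 and −0.32, with a main set median of −0.01. Between states, H3K4me1 at the downstream regions was slightly higher in formative cells, by 0.19 and 0.49 in WT and by 0.27 and 0.40 in DKO for the near and far region. H3K27ac moved the other way in WT. Over the 27829 regions whose H3K27ac was at least 2-fold lower in naive DKO, the median H3K4me1 difference was −0.64. Only 8.51% of these had H3K4me1 as high relative to WT as the near region, while 32.4% were at or above the far region.

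The RNA columns could not be read for Otx2. All 8 RNA level columns and 10 RNA fold columns, which cover WT, DKO and the genotypes named CKO and dCD in the table, are empty for its 3 regions. The table holds RNA for 9781 of 19135 genes with a region, and 51.8% of regions have none. How these H3K27ac values relate to Otx2 RNA was therefore not analysed here. With 3 regions Otx2 was close to the median of 4 regions per gene.

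Genes listed as formative factors or partners of OTX2 gave a mixed H3K27ac picture in WT. The list includes Nanog, whose 8 regions (5 fell, none rose) are counted again among the naive factors below. It also includes Sox2, with 4 of 4 regions that fell, and Pou5f1, with 2 of 3 that fell and none that rose. Of 29 listed names other than Otx2, 28 had a region, since Oct6 is another name of Pou3f1. By DiffBind in the authors' deposited table, 68 of their 243 regions (28.0%) rose, while 59 (24.3%) fell, against 20.8% and 15.8% of all regions. Lef1, a Wnt effector, had 13 of 15 regions that rose and none that fell. Pou3f1, which encodes the POU factor OCT6 that works beside OTX2, had 4 of 8 regions that rose and none that fell. Etv4, which encodes an ETS factor, had a negative median between states in WT, −0.83, and a positive one in DKO, 0.58, as the Otx2 regions did. These 3 genes were chosen after their values were seen. In naive cells DKO against WT had a list median of −0.72, with 89 of 224 regions at least 2-fold lower (39.7%) and 25 higher (11.2%), against 26.3% and 19.2% of the main set. The Otx2 median was −2.27. RNA of 26 of these genes is in the authors' deposited table, with a median log2 fold from naive to formative of 1.20 in WT and 2.15 in DKO. In WT 14 of the 26 were at least 2-fold higher and 1 lower in the authors' deposited table, against 17.1% and 9.65% of all genes. In DKO 19 were higher and 1 lower in the authors' deposited table, against 18% and 5.15%. The corresponding list medians in the authors' deposited table were 1.12 in CKO and 1.43 in dCD. Over the 26 genes, the median log2 RNA of DKO against WT was −0.52 in naive and −0.19 in formative cells. By this median, DKO was thus below WT in both states, and further below it in naive cells.

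Regions of the naive factors that OTX2 opposes mostly fell where they were called in WT. Of 201 regions at 14 genes, such as Klf2, Esrrb and Tbx3, 108 fell (53.7%) and 17 (8.46%) rose by DiffBind in the authors' deposited table, against 15.8% and 20.8% of all regions. Their median in DKO, however, was −0.88 between states, where the near and far Otx2 regions were at 0.39 and 1.01. In naive cells DKO against WT had a median of −0.76 over these regions.

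A long noncoding RNA gene on the opposite strand, Otx2os1, begins upstream of Otx2 and extends away from it, from 48669288 to 48793348 in RefSeq. Its 9 regions lay 38.4 to 89.4 kb upstream of the internal Otx2 start. By DiffBind in the authors' deposited table, 3 of the 9 rose, 2 fell and 4 did not pass, where 20.8% of all regions rose and 15.8% fell. The region at 48705411 to 48706187 rose by 6.47 in the authors' deposited table (DiffBind adjusted p = 1.54e-05). Its naive WT concentration there was −0.41, as at 48751650 to 48752524, where naive WT H3K27ac is listed at 0. The size of this rise thus depends on the floor of the scale. The region at 48716041 to 48717381 fell by 4.73 in the authors' deposited table (DiffBind adjusted p = 2.72e-14), and its pooled levels of 8.85, 4.28, 5.64 and 4.96 in naive WT, formative WT, naive DKO and formative DKO had naive WT as the high group, as at the downstream Otx2 regions. Over the 7 Otx2os1 regions above 0 in all groups, DKO against WT had a median of −0.43 in naive cells, with 2 lower and 2 higher by 2-fold, against 26.3% and 19.2% of the main set. In formative cells the median was −1.04, with 4 lower, against 39.3%. H3K4me1 was below WT in DKO at 8 of 9 Otx2os1 regions in naive and 9 of 9 in formative cells, with formative values from −2.64 to −0.21. At Otx2 it was below WT at 1 of 3 regions in each state. Over the main set 64.9% of regions were below WT in naive and 50.3% in formative cells. Taking all 10 regions of the main set within 100 kb, whatever gene was assigned, the WT median between states was 1.22 in place of −1.43 for Otx2 alone. By DiffBind in the authors' deposited table, 4 of the 12 regions in that window fell and 3 rose.

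**Figure D3:**
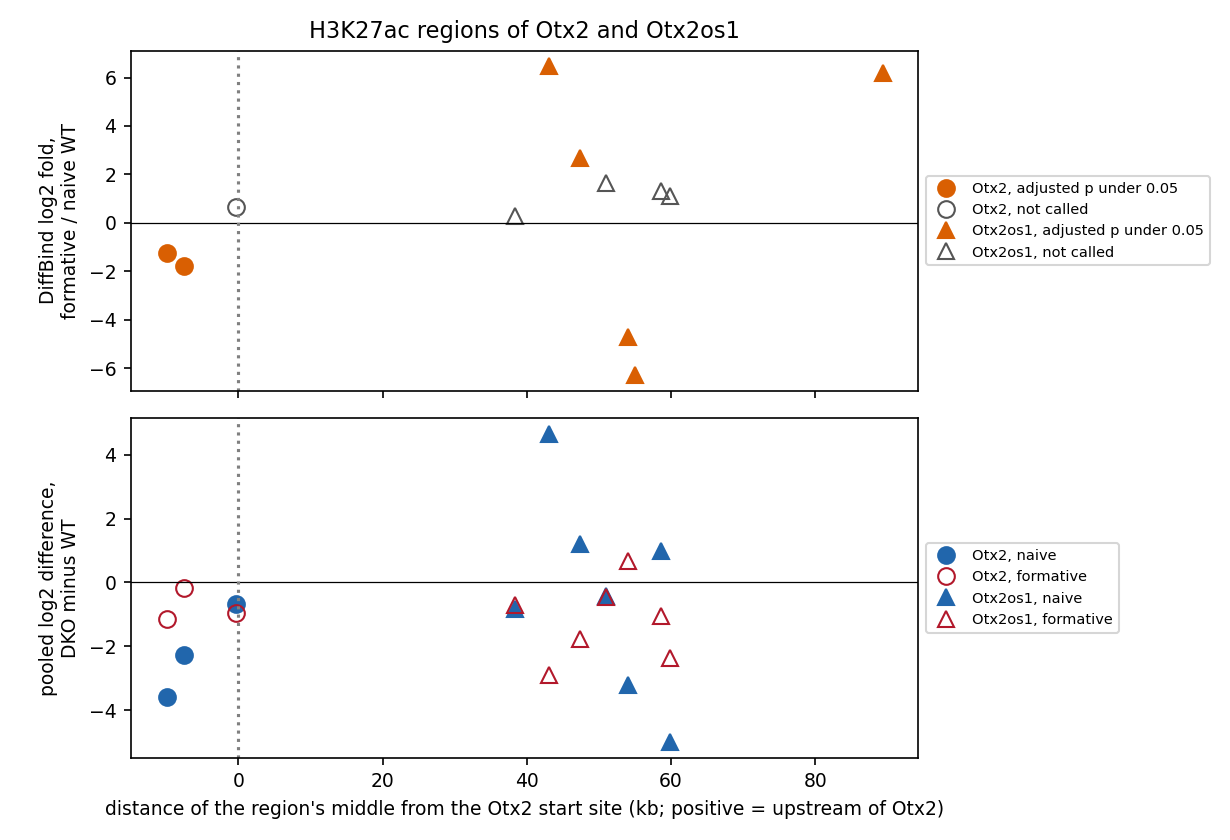
H3K27ac regions of Otx2 (circles) and Otx2os1 (triangles) by distance in kb from the internal Otx2 start (dotted line), upstream to the right. The upper panel plots the DiffBind log2 fold of formative over naive WT from the authors' deposited table, with adjusted p under 0.05 filled; the lower panel plots the pooled log2 difference of DKO minus WT in naive (filled) and formative (open) cells for regions above 0 in all groups, where the far downstream region is the lowest Otx2 point at −3.59.

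Genes with the most similar H3K27ac profile were found by distance between gene medians over the 4 groups, after centring each gene on its mean. The centred Otx2 profile was 1.47 in naive WT, −0.24 in formative WT, −0.81 in naive DKO and −0.42 in formative DKO. In every group the median of the 3 Otx2 regions was the near downstream region's value, so this profile is that of the near region alone. With 3 regions Otx2 was itself below the limit of 5 set for the other genes. Among 6915 genes with at least 5 regions within 100 kb, the nearest was Ifitm7, of the interferon-induced transmembrane family, at a distance of 0.064 on the log2 scale. Next came Pfkp, which encodes a phosphofructokinase, at 0.184, Upp1, a uridine phosphorylase gene, at 0.212, and Clcn6, of the chloride channel family, at 0.221. The list closed with 1700042O10Rik at 0.225 and the small nucleolar RNA gene Snord93 at 0.246. The median distance over all candidates was 2.02. Ranking by correlation in place of distance kept only Ifitm7 of the 6.

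RNA in the authors' deposited table was read for the states and genotypes that the labels name. It comes from libraries outside this series, so it cannot check the labels of the H3K27ac libraries themselves. In log2 DKO against WT, the authors' deposited table gives −1.15 (naive) and −0.91 (formative) for Kmt2c, and −0.72 and −0.84 for Kmt2d. Which parts of the genes were deleted is not stated in these sources. The RNA levels of 6 naive markers summed on a linear scale, with no unit stated, to 2035 in naive and 325 in formative WT, and to 1896 and 399 in DKO. The naive sums hide members that went both ways. In log2 DKO against WT in naive cells, Klf4 was higher, at 1.85. Esrrb, Klf2, Nr0b1, Tfcp2l1 and Zfp42 were lower, at −0.89, −0.77, −1.82, −0.26 and −0.83. Fgf5 and Pou3f1, the formative markers with RNA, summed to 9.66 and 391 in WT and to 13.5 and 506 in DKO. Otx2 is also known from neural and anterior endoderm cells. RNA of 3 of 8 neural markers summed to 19.5 in naive and 60.5 in formative WT and to 32.0 and 70.8 in DKO. The WT sums came mostly from Nes, which was lower in DKO, at log2 values of −0.47 in naive and −0.84 in formative cells. Sox1 was higher in DKO, at 1.95 and 2.49, as was Lhx2, at 0.39 and 0.69. RNA of 6 of 9 markers of anterior visceral endoderm and mesendoderm summed to 25.9 and 99.3 in WT and to 51.6 and 37.7 in DKO. The formative WT sum came mostly from Lefty1, at a log2 level of 6.32. In naive DKO against WT, log2 values were 5.04 for Dkk1, 1.06 for Mixl1, 0.85 for Lefty1 and 0.73 for Gsc. Hhex and T were lower, at −0.49 and −0.24. Among other cell types, RNA of 4 of 7 trophoblast markers summed to 132 in naive and 69.9 in formative WT and to 206 and 70.5 in DKO. The naive sums came mostly from Tfap2c, also listed among the naive factors, at log2 levels of 6.92 in naive and 4.43 in formative WT. Krt7, Krt8 and Krt18 went the other way in WT, with log2 folds from naive to formative of 3.44, 1.02 and 2.64. Their folds in DKO were −0.69, −0.21 and −0.19. RNA of 3 of 8 primitive endoderm markers summed to 17.7 in naive and 106 in formative WT and to 40.1 and 82.0 in DKO. In WT these sums came mostly from Lamb1, at log2 levels of 3.80 and 6.52. RNA of 4 of 8 fibroblast feeder markers summed to 121 and 56.5 in WT and to 91.9 and 270.0 in DKO. These sums came mostly from Vim, at log2 levels of 6.88 and 5.48 in WT and 6.46 and 7.95 in DKO. Col1a2, Thy1 and Twist1 instead rose in WT, with log2 folds of 2.58, 1.55 and 2.53. Their folds in DKO were 3.20, −0.68 and 2.77. The part of these cell types in the Otx2 values was not tested. In bulk libraries, fewer cells with the mark and less of it per cell cannot be told apart.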

How the data were processed

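The data were read from a single deposited table, with 112137 regions in 47 columns. For H3K27ac and H3K4me1 it holds log2 values, as log2(value + 1), that the authors pooled per group, and its RNA columns are deposited log2 levels and folds. H3K4me1 and RNA come from libraries outside this series. The deposited DiffBind columns give concentrations, a log2 fold, a p-value and an adjusted p-value. The submitters' processing notes list mm10 as build and, as tools, deepTools, DiffBind, SEACR, Bowtie2 and Trim Galore. Versions, roles and scaling between groups are not stated there or in the labels.

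The design called for tests over libraries if per-library values were given, and for untested differences of pooled values if not. Pooled columns allow no test over libraries, so comparisons other than formative against naive WT are differences with no p-value. They were called at an absolute log2 value of 1. No column used gives a library's total reads, so depth is known only through DiffBind concentrations. Coordinates are as deposited; widths exceed end minus start, so a start may be 1 base off. In a regression on concentration and log2 width, the pooled level had a width exponent of −2.02 in both WT groups, so per-kb levels undo 1 division by width. The main set excluded 6494 regions at 0 in a group. Otx2 starts, gene spans and sequences came from RefSeq and GENCODE M21 on GRCm38. For RNA of list genes, the regions that carry a value were used. All Otx2 regions are named; genes alike by H3K27ac followed a set rule, and those alike by RNA could not be found because Otx2 has no RNA value. The members and lists were chosen with earlier results of these data known. Alternatives covered scaling, width, pseudocount, filters, thresholds and the choice of regions. Scripts used Python 3.11.15, pandas 2.3.3, numpy 2.4.6 and statsmodels 0.14.6 and were tested on simulated data.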

Additional observations from a re-analysis of the deposited data

Results flagged for a closer look

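The change of state had opposite signs in WT and DKO cells at both downstream Otx2 regions. The change in DKO minus that in WT was 2.10 at the near downstream region, from 0.39 in DKO and −1.71 in WT, and 2.44 at the far downstream region, from 1.01 and −1.43. The DKO change did not reach 2-fold at the near region, and at the far region it was 0.79 with a pseudocount of 10. The values are pooled, 1 per group, and the difference was not tested.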

How the results depend on the processing

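Scaling moved the median of the main set by up to 0.77 in formative DKO against WT (median centring) and by −0.63 there after scaling to promoters. The Otx2 median of that comparison, −0.97, was −0.20 with median centring, −1.60 after scaling to promoters and −0.081 after quantile normalization. Quantile normalization also gave −2.14 in place of −1.43 for formative against naive WT, and 2.81 in place of 2.10 for the change of state in DKO minus that in WT. With the 2 regions above the median of mean level, naive DKO against WT was −2.93 in place of −2.27. Taking all 10 regions within 100 kb whatever gene was assigned gave 1.22 for formative against naive WT, the only reversal among the Otx2 medians, −0.75 for naive DKO against WT and 0.047 for the difference of state changes. By DiffBind, 4 of 12 such regions fell, against 2 of 3 for Otx2, and 1 Otx2 region fell at an adjusted p under 0.01. These alternatives differ in which regions or which threshold they use; the cause of the scaling effects was not tested. The DiffBind fold in place of the pooled one, chosen after seeing the data, gave −1.23. For single regions, scaling changed the sign of formative DKO against WT at the near region (up to 0.89) and the intronic region (up to 0.47), and of the intronic change of state in DKO minus that in WT (up to 0.74). With loess offsets the median of formative DKO against WT was −0.40. Removing the filter on low values and limiting the distance to 100 kb select the same 3 regions and so bear on nothing. No paired analysis was possible because the columns pool the replicates, and for the same reason no library could be left out. The intronic region rests on 31.3 and 49.9 normalized reads, and whether depth limits its test was not tested.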

Other observations

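A pair of Otx2os1 regions beside each other had naive WT as their highest group, as did the regions downstream of Otx2. The region at 48717521 to 48718065 fell by 6.29 from naive to formative WT in the authors' deposited table (DiffBind adjusted p = 4.62e-05), and its pooled log2 H3K27ac was 9.85 in naive WT, listed at 0 in formative WT, 7.11 in naive DKO and 6.75 in formative DKO. Its neighbour at 48716041 to 48717381 was at −3.21 in naive DKO against WT. At 48751650 to 48752524, a region that rose by 6.19 in the authors' deposited table (DiffBind adjusted p = 9.38e-05), H3K27ac was listed at 0 in both naive groups, at 8.33 in formative WT and at 7.25 in formative DKO. DKO against WT was −5.01 in naive and −2.36 in formative cells at 48722311 to 48722897, a region that did not pass between states in WT in the authors' deposited table (DiffBind adjusted p = 0.317).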
